A study of Mus musculus with 22 samples.

Results

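The entorhinal cortex (EC) and the hippocampus (HIP) were compared in Ts66Yah mice. All 12 libraries labelled as Ts66Yah were taken, 6 from the EC and 6 from the HIP, of the 22 libraries of the series, and the number that ends each library name paired the regions, since the libraries that share it also share an animal number. Ts66Yah mice model Down syndrome through a freely segregating minichromosome that brings an additional copy of mouse chromosome 16 (Mmu16) from Mir155 to the telomere, so that 3 copies of these genes are present where wild-type (wt) littermates have 2. The line goes back to 1 founder in which CRISPR/Cas9 removed the Mmu17 part of the Ts65Dn minichromosome, and by the study's methods it was kept on a mixed B6C3B background shared with the wt mice. All animals were adult males, with no treatment in the labels, and each gave both regions. The other 10 libraries, from 5 wt littermates without the minichromosome, served for comparison.

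The HIP is formed by the granule cells of the dentate gyrus (DG) and by the pyramidal cells of fields CA1, CA2 and CA3, and it lies against the lateral ventricle, where the choroid plexus secretes cerebrospinal fluid. The EC is a layered cortex at its border. Cells of its superficial layers send the perforant path into the DG and CA fields, and its deep layers receive the output of CA1 and the subiculum. Many genes are used unequally by these cell types in any mouse, and the triplicated segment holds genes of several such kinds, including channels, adhesion molecules and the transcription factors of the oligodendrocyte lineage.

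Total counts ran from 29.95 to 38.4 M (mega) per library in the EC (median 33.5 M) and from 29.95 to 41.9 M in the HIP (median 36.7 M). No library was a repeat of another, since over the 30 pairs within a region the chi-square was never below 10.5 per gene, and each counted as 1 sample. As a check of the genotype, the median over segment genes lay 0.537 to 0.618 above the wt mean on the log2 scale in all 12 Ts66Yah libraries, against -0.044 to 0.029 in the wt libraries. Meningeal markers, summed over 11 genes, reached 1409 and 1721 CPM (counts per M of the library, scaled) in the EC of animals 4 and 3, against 360.1 to 712 CPM in the EC of the other 4 animals.

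The regions differed widely. Of 18043 genes tested, 10647 (59.0%) passed an adjusted p of 0.05 in edgeR's quasi-likelihood test with the animal as block, with 5208 of them (28.9% of the tested genes) higher in the EC and 5439 (30.1%) in the HIP. All fold changes below are EC minus HIP on the log2 scale with their standard error (SE), so that a negative value is higher in the HIP. Most differences were small. The median absolute log2 fold change of the called genes was 0.479, and 5516 of them lay at 0.5 or less. A difference of at least 2-fold was called for 2309 genes (12.8%), of which 768 (4.26%) were higher in the EC and 1541 (8.54%) in the HIP. At 16-fold or more, 8 genes were higher in the EC and 52 in the HIP. In 9184 of the called genes, or 86.3%, all 6 animals moved in the called direction, and for 5815 genes (32.2% of those tested) the 6 EC libraries and the 6 HIP libraries did not overlap.

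The 12 protein-coding genes with the largest differences towards the HIP were Ttr, Kcne2, Lhx9, Mfrp, Rtl3, Dsp, Slc4a5, Tmem72, Folr1, Iyd, Cldn2 and Lct. Lhx9, a LIM-homeodomain transcription factor, ranged from 14.4 to 24.4 CPM in the HIP (median 17.6) and from 0.055 to 0.309 CPM in the EC. That is 99.7-fold higher in the HIP (-6.64, SE 0.22, adjusted p = 9.14e-09). Dsp, the desmosomal protein desmoplakin, which marks DG granule cells in the mouse brain, ranged from 68.0 to 121.8 CPM in the HIP and from 0.349 to 2.25 CPM in the EC, a log2 fold change of -6.34 (SE 0.18). Lct, which encodes lactase, had a median of 57.9 CPM in the HIP and 1.45 CPM in the EC, and Iyd, an iodotyrosine deiodinase used as a CA3 marker, had 6.96 and 0.120 CPM. The ranking took only genes of at least 5 CPM in the higher region and without overlap between the regions. The lack of overlap for these genes was thus set by the rule.

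The largest difference of the named genes was that of Ttr, the transthyretin that choroid plexus epithelium secretes. It ranged from 712 to 2663 CPM in the HIP (median 1109.5) and from 3.94 to 8.70 CPM in the EC, which is a fold change of -7.78 (SE 0.29, adjusted p = 1.55e-08) on that scale. Mfrp (-6.56, SE 0.30), the bicarbonate cotransporter gene Slc4a5 (-6.11, SE 0.24), Tmem72 (-5.91, SE 0.35), the folate receptor gene Folr1 (-5.85, SE 0.26) and the tight junction gene Cldn2 (-5.34, SE 0.38) were also among the 12. Ttr, Slc4a5 and Folr1 are on the choroid plexus list described further on. Folr1 ranged from 4.79 to 18.5 CPM over the 6 HIP libraries, a wider relative range than the 14.4 to 24.4 CPM of Lhx9.

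In the EC, the leading protein-coding genes of at least 5 CPM without overlap differed less. The largest called fold towards the EC over all tested genes, 328-fold, was that of a gene outside these limits. Dkkl1 (Dickkopf-like 1) ranged from 22.3 to 31.2 CPM in the EC (median 26.8) and from 0.656 to 3.33 CPM in the HIP, with log2 differences of 2.72 to 5.30 within the 6 animals (adjusted p = 1.91e-06). Rasgef1c, a guanine nucleotide exchange factor gene, had medians of 50.1 CPM in the EC and 2.85 CPM in the HIP (3.83, SE 0.27). The neuropeptide precursor gene Cartpt (3.78, SE 0.26), the guidance cue gene Sema3a (3.26, SE 0.10) and Oprk1, the kappa opioid receptor gene (3.24, SE 0.12), were also among the 12 largest. All 6 EC libraries lay above all 6 HIP libraries for each of these genes because the ranking took only genes without overlap between the regions.

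Among the marker lists, those of the HIP divided by field. Beside the counts of every list below, 28.9% of all tested genes were higher in the EC and 30.1% in the HIP. Of 12 genes listed for the HIP as a whole, 9 were higher in the HIP and 3 in the EC, with a median log2 fold change of -1.99 against 0.00 over all genes tested. Besides Lhx9, the calcium-binding protein gene Cabp7 ranged from 266 to 349 CPM in the HIP against 19.0 to 36.9 CPM in the EC (-3.59, SE 0.15). The receptor tyrosine kinase gene Tyro3 (0.93, SE 0.06), the AMPA receptor auxiliary subunit gene Cnih3 (0.91, SE 0.07) and the transcription factor gene Lhx2 (0.50, SE 0.05) were higher in the EC, although listed for the HIP. Of 14 DG granule cell genes, 9 were higher in the HIP and 2 in the EC, with a median of -0.78. The complement-related synaptic gene C1ql2 ranged from 20.3 to 43.8 CPM in the HIP and from 0.679 to 1.72 CPM in the EC (-4.73, SE 0.18). Prox1, the homeobox gene that sets granule cell identity, named here after its values were seen, ranged from 106 to 131 CPM in the HIP and from 11.0 to 13.1 CPM in the EC, 10.1-fold lower (-3.34, SE 0.06). Calb1, the calbindin gene of granule cells and also of superficial cortical cells, was the reverse (0.95, SE 0.06), at 194 to 237 CPM in the EC and 105 to 135 CPM in the HIP.

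The pyramidal cell lists were mixed. Of 10 CA3 genes, 7 were higher in the HIP and 2 in the EC (median -0.52), with the kainate receptor gene Grik4 at 54.9 to 72.2 CPM in the HIP and 20.5 to 28.7 CPM in the EC (-1.40, SE 0.06). Coch, which encodes cochlin, was the reverse, at 24.4 to 51.9 CPM in the EC and 5.05 to 5.87 CPM in the HIP (2.72, SE 0.12). Of 9 CA2 genes, 4 were higher in the HIP and 3 in the EC (median -0.22). The 4 include Sostdc1, which is also on the choroid plexus list described further on. Amigo2, a cell adhesion gene, was 5.66-fold higher in the HIP (-2.50, SE 0.07), whereas the adrenergic receptor gene Adra2a was higher in the EC (1.55, SE 0.08). Of 9 CA1 genes, 4 were higher in each region (median 0.23). Spink8 (-4.17, SE 0.25), the chitin-binding receptor gene Fibcd1 (-3.14, SE 0.24) and Gpr161 (-2.46, SE 0.14) were higher in the HIP. Ccn3, a matricellular protein gene, was higher in the EC (1.78, SE 0.11).

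Cortical markers were mostly higher in the EC. Of 28 genes listed for the EC and for deep cortical layers, 20 were higher in the EC and 5 in the HIP, with a median of 1.43. Their summed level was 1511 to 1683 CPM in the EC and 711 to 881 CPM in the HIP. After Cartpt, the largest differences were those of the matricellular gene Ccn2, a marker of deep layer 6b (20.95 to 51.9 CPM against 2.86 to 9.30 CPM, 2.95, SE 0.17), and of Myl4, a myosin light chain gene (2.80, SE 0.26). Reln, the reelin gene of layer 2 stellate cells and of some interneurons, named after its values were seen, ranged from 101 to 298 CPM in the EC and from 81.7 to 111 CPM in the HIP (1.14, SE 0.13), with all 6 animals higher in the EC although the regions overlapped. The neurotensin gene Nts (-1.54, SE 0.34), the epithelial sodium channel gene Scnn1a (-1.51, SE 0.13) and the collagen gene Col5a1 (-1.10, SE 0.13) of this list were higher in the HIP, and Lef1, Nnat and Lxn did not pass the threshold.

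Of 23 tested transcription factors of cortical layers, 13 were higher in the EC and 6 in the HIP (median 0.54). Mef2c, which controls synapse number in cortical neurons, ranged from 975 to 1344 CPM in the EC and from 181 to 272 CPM in the HIP (2.44, SE 0.11). Foxp2, a gene of corticothalamic cells, was at 6.63 to 17.6 CPM in the EC and 1.19 to 2.51 CPM in the HIP (2.39, SE 0.21). Bcl11b, used by subcerebral projection neurons and by DG and CA1 cells, was the reverse, at 124 to 150.2 CPM in the HIP and 33.2 to 76.6 CPM in the EC (-1.36, SE 0.16), as were Zfpm2 (-1.70, SE 0.10) and Tshz2 (-1.31, SE 0.15). Fezf2, Tle4, Etv1 and Bhlhe22 did not pass, and Lhx5 was too low to be tested. Interneuron genes were higher in the EC in 15 of 23 cases and in the HIP in 4 (median 0.32). Lamp5 (2.16, SE 0.19), the corticotropin-releasing hormone gene Crh (1.83, SE 0.17) and Chodl (3.07, SE 0.44) led in the EC, and Adarb2 (-0.75, SE 0.07), Sncg (-0.73, SE 0.15) and Ndnf (-0.39, SE 0.07) in the HIP. Gad1, the GABA-synthesizing enzyme gene that inhibitory neurons share, was at 402 to 444 CPM in the EC and 366 to 449.5 CPM in the HIP and did not pass the threshold (0.05, SE 0.04), and neither did Pvalb, Calb2 and Kcnc1.

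**Figure D1:**
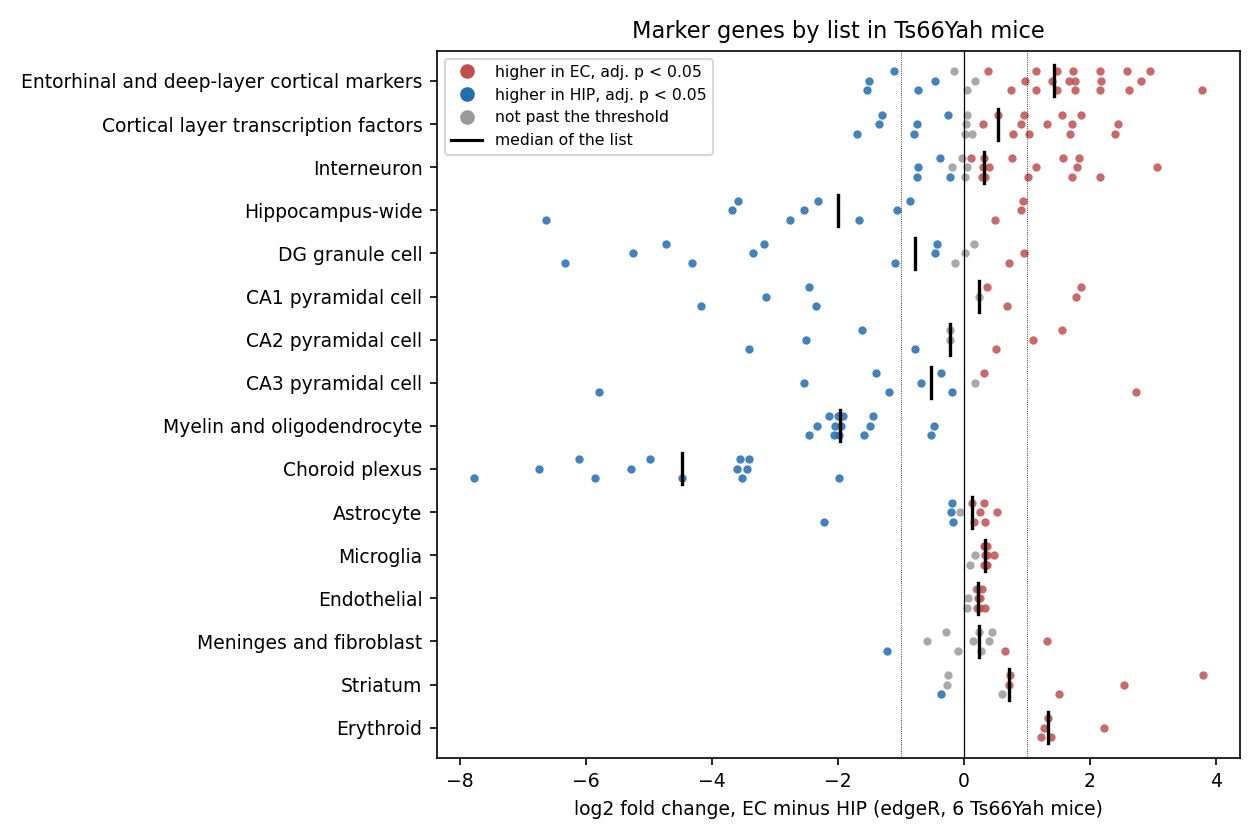
Log2 fold change (EC minus HIP, x axis) of every tested marker gene in 6 Ts66Yah mice, 1 row per list (y axis). Points are genes, colored where the adjusted p was under 0.05 (red, higher in EC, blue, higher in HIP) and grey otherwise, black bars are list medians and dotted lines mark 2-fold. The medians run from -4.47 for the choroid plexus to 1.43 for the entorhinal and deep-layer cortical markers, and all points of the myelin and choroid plexus lists are blue.

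All 14 myelin and oligodendrocyte genes were higher in the HIP (median -1.97), and their summed level was 8144 to 10646 CPM in the HIP and 1894 to 3251 CPM in the EC. Opalin ranged from 38.9 to 50.4 CPM in the HIP and from 5.95 to 13.8 CPM in the EC (-2.45, SE 0.13), with Mobp (-2.33, SE 0.14) and Mag (-2.14, SE 0.12), both myelin proteins, close to it. All 13 choroid plexus genes were higher in the HIP (median -4.47). Their summed level was 1334 to 4482 CPM in the HIP and 180.3 to 252 CPM in the EC, where most of the sum was Enpp2, a gene of other cells too, and each of the 13 genes still had at least 1 count in every EC library. In bulk tissue such a difference can come from more cells of a type or from more RNA per cell, and these cannot be told apart.

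The other cell types differed less. Of 11 astrocyte genes, 6 were higher in the EC and 4 in the HIP (median 0.13). Gfap, the intermediate filament of fibrous and reactive astrocytes, stood apart from the rest, at 361 to 468 CPM in the HIP and 64.2 to 124.8 CPM in the EC (-2.22, SE 0.13), while the glutamate transporter gene Slc1a2 was slightly higher in the EC (0.32, SE 0.05). Microglial genes were higher in the EC in 9 of 11 cases and lower in none that passed (median 0.34). Csf1r, the receptor on which microglia depend, had medians of 119.8 CPM in the EC and 94.7 CPM in the HIP (0.36, SE 0.05). Endothelial genes were higher in the EC in 7 of 10 cases (median 0.22). All 5 erythroid genes were higher in the EC (median 1.33), where their sum was 269.5 to 605 CPM against 86.3 to 232 CPM in the HIP, and the near-identical globin copies among them may share reads. Of the 11 meningeal genes, 8 did not pass, 2 were higher in the EC, the transporter genes Slc22a6 (1.32, SE 0.18) and Slc6a13 (0.65, SE 0.16), and Lum, a proteoglycan gene, was higher in the HIP (-1.23, SE 0.18). Of 9 tested striatal genes, 5 were higher in the EC and 1 in the HIP (median 0.71), with a sum of 246 to 315 CPM in the EC and 156 to 194.7 CPM in the HIP. Drd1 was higher in the EC (1.51, SE 0.15), Drd2 and Adora2a did not pass. What these marker levels contribute to the other differences was not tested.

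Receptor and channel genes were called in both directions, where 28.9% of all tested genes were higher in the EC and 30.1% in the HIP. Of 15 ionotropic glutamate receptor genes, 6 were higher in each region (median -0.04). Gria1, an AMPA receptor subunit, ranged from 994 to 1303 CPM in the HIP and from 389 to 451 CPM in the EC (-1.52, SE 0.06), and the NMDA receptor gene Grin2a was also higher in the HIP (-1.07, SE 0.05). The AMPA subunit gene Gria4 was the reverse (0.97, SE 0.05), as was the kainate subunit gene Grik3 (1.10, SE 0.10). Of 12 GABA-A receptor genes, 8 were higher in the EC and 3 in the HIP (median 0.33). Gabra3 was at 249 to 296 CPM in the EC and 54.4 to 77.1 CPM in the HIP (2.06, SE 0.08), and Gabra5, the extrasynaptic subunit gene of pyramidal cells, at 58.6 to 111 CPM in the EC and 217 to 251 CPM in the HIP (-1.43, SE 0.11). Of 7 metabotropic glutamate receptor genes, 4 were higher in the EC, led by Grm8 (1.56, SE 0.10), and 1, Grm2, in the HIP (-0.28, SE 0.07).

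The 12 serotonin receptor genes were split, 5 higher in the EC and 4 in the HIP (median 0.31), with Htr2a at 43.1 to 58.1 CPM in the EC and 13.1 to 25.6 CPM in the HIP (1.48, SE 0.07) and Htr4 at 0.906 to 2.63 CPM in the EC and 14.1 to 22.7 CPM in the HIP (-3.23, SE 0.22). Of 25 voltage-gated potassium channel genes, 14 were higher in the EC and 7 in the HIP (median 0.24). The silent subunit gene Kcnf1 had medians of 226 CPM in the EC and 53.0 CPM in the HIP (2.15, SE 0.10), and Kcna1, a delayed rectifier gene of axons, was higher in the HIP (-0.86, SE 0.06). Activity-regulated genes were higher in the EC in 12 of 19 cases and in the HIP in 3 (median 0.74). Their sum was uneven between animals, from 597 to 2056 CPM in the EC and from 613 to 1085 CPM in the HIP, and it was highest in the EC of animals 1, 5 and 6. Fos, an immediate early gene, ranged from 7.02 to 76.9 CPM in the EC and from 3.34 to 17.4 CPM in the HIP, overlapping, with all 6 animals higher in the EC (1.48, SE 0.20). The nuclear receptor gene Nr4a3 was the reverse without overlap (-1.62, SE 0.16).

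The triplicated segment was then described on its own. It was taken from Mir155 to the last gene of the chromosome (GRCm38, chromosome 16, 84714140 to 98082450) and held 289 genes of the count table, 135 of them protein-coding. Of these, 98 genes (84 protein-coding) passed the filter on low counts and 191 did not, including 84 genes with 0 counts in all 12 libraries. Of the 98 tested genes, 63 were called (64.3%, against 59.0% of all tested genes), 24 towards the EC (24.5%, against 28.9%) and 39 towards the HIP (39.8%, against 30.1%). The median log2 fold change was -0.07, and the median absolute value 0.284 against 0.288 over all genes. At 2-fold or more, 3 segment genes were higher in the EC and 12 in the HIP, together 15.3% against 12.8%. The regions did not overlap for 34 of them (34.7%, against 32.2%), and in 52 of the 63 called genes (82.5%, against 86.3%) all 6 animals moved in the called direction. All 24 genes called higher in the EC were protein-coding, whereas 7 of the 14 tested genes of other biotypes were called, all higher in the HIP. Of 3245 such genes tested outside the segment, 494 (15.2%) were higher in the EC and 857 (26.4%) in the HIP. Most of the 7 called in the segment overlap a protein-coding gene on the opposite strand, and some had means under 1 CPM in both regions. The strand setting of the counting is not stated, so reads of such pairs cannot be told apart. Calls rose with level, from 5 of 14 genes under 1 CPM to 13 of 22 between 1 and 10 CPM and 45 of 62 at 10 CPM or more, taken in the region with the higher mean. The same classes were not counted over all tested genes, so this rise is not shown to be a trait of the segment.

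**Figure D2:**
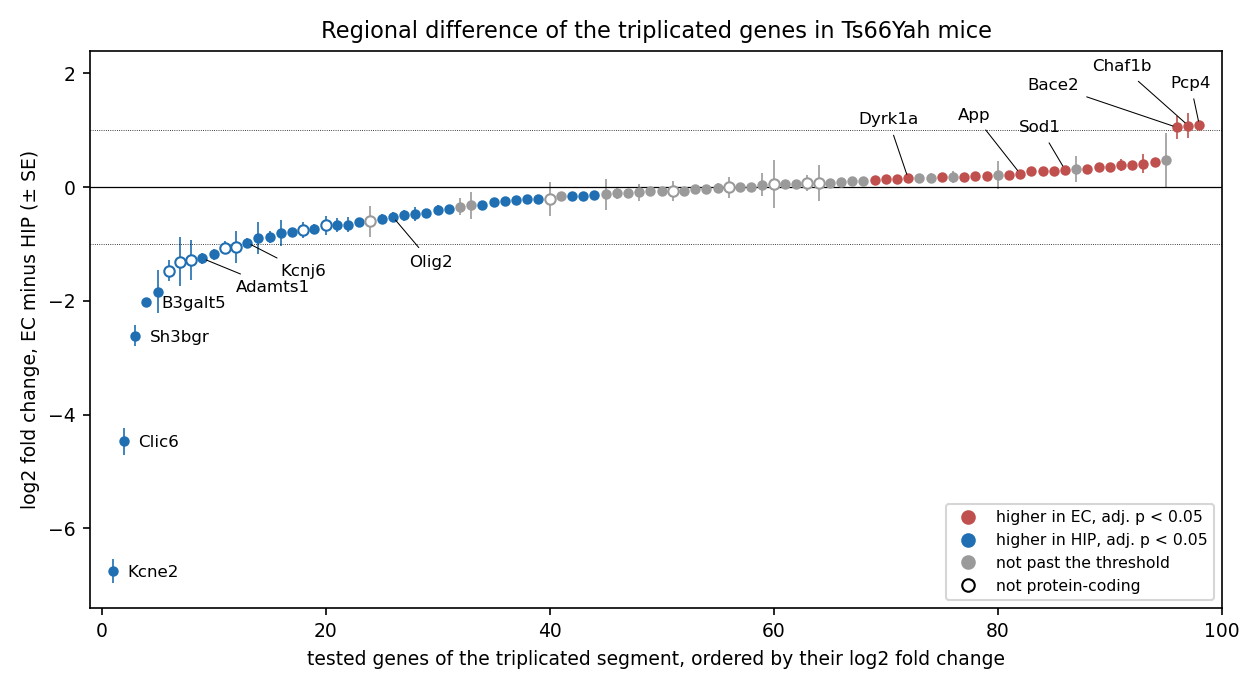
Log2 fold change (EC minus HIP, y axis, bars are SE) of the 98 tested genes of the triplicated segment in 6 Ts66Yah mice, ordered along the x axis by that value. Red and blue points passed the threshold (24 higher in EC, 39 higher in HIP), grey ones did not, open circles are not protein-coding, and dotted lines mark 2-fold. Kcne2 at -6.75 and Clic6 at -4.47 lie below all others, and 3 genes lie above 1.

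Promoter sequence is given for 5 protein-coding genes of this order with differences of about 2-fold or more, to show the annotated starts of genes that differed in either direction. Which start the cells use was not measured. Each is the stretch of 250 bases before the RefSeq transcription start nearest to the annotated gene start (GRCm38.p6), read 5′ to 3′ on the gene's own strand. Capitals mark matches on either strand to TATAAA (the TATA box), GGGCGG (the GC box), TAATTA (the core bound by LIM and other homeodomain factors) or CAGATG (an E-box of neurogenic factors), of which none contains another. Pcp4 and Chaf1b were higher in the EC, the other 3 in the HIP.
Pcp4, chr16:96467356-96467605, plus strand: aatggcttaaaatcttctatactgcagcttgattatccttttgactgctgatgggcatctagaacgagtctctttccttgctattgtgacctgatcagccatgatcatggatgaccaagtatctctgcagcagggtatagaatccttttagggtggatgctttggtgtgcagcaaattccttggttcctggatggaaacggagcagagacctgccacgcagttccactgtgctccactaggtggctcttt
Chaf1b, chr16:93883651-93883900, plus strand: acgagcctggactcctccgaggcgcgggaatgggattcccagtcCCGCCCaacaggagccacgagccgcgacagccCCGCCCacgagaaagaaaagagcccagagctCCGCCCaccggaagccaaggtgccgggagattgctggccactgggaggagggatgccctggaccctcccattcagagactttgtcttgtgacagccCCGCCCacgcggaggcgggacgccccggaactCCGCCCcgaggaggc
Kcne2, chr16:92292139-92292388, plus strand: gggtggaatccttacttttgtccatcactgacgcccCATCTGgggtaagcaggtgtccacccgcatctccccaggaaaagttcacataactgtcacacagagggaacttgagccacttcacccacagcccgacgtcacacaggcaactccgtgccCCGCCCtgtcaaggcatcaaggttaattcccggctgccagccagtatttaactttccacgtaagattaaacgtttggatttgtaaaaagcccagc
Adamts1, chr16:85803114-85803363, minus strand: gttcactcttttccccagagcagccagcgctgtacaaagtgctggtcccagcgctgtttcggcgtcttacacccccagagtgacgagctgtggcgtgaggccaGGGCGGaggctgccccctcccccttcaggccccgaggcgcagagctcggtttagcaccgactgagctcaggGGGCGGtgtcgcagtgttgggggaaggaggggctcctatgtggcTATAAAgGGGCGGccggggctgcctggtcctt
Kcnj6, chr16:94997697-94997946, minus strand: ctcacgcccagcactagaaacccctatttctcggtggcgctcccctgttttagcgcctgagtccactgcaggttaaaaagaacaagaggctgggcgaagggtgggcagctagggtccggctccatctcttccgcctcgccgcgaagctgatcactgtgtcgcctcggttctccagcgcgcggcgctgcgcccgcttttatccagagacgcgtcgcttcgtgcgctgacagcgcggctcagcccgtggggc

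The GC box was found 5 times before Chaf1b, 3 times before Adamts1 and once before Kcne2, and 56.6% of 12399 such promoters of tested genes and 44 of 75 in the segment (58.7%) held it. TATAAA was found once before Adamts1, 32 bases before the start, and 6.72% of all promoters held it. CAGATG was found once before Kcne2, with 10.6% of all promoters holding it, and TAATTA (2.57%) before none of the 5. None of the 4 motifs was found before Pcp4 and Kcnj6. A match describes letters only and says nothing of a bound factor.

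Among the channels and receptors of the segment, 4 of 9 tested genes were higher in the HIP and 2 in the EC. Beside this and the other short lists of segment genes below, 30.1% of all tested genes were higher in the HIP and 28.9% in the EC. Of the tested segment genes, these shares were 39.8% and 24.5%. Kcne2, an accessory potassium channel subunit of epithelia, ranged from 6.34 to 22.2 CPM in the HIP (median 12.0) and from 0.026 to 0.168 CPM in the EC, where it had 1 to 6 counts per library (-6.75, SE 0.22, adjusted p = 8.34e-09). Clic6, an intracellular chloride channel gene of the same stretch of the segment, ranged from 21.6 to 73.2 CPM in the HIP (median 33.6) and from 1.18 to 2.20 CPM in the EC, 22.1-fold lower (-4.47, SE 0.24, adjusted p = 1.31e-07). Both are also on the choroid plexus list. The other 11 genes of that list summed to 4386 CPM in the HIP of animal 1, 3058 in animal 5, 2215 in animal 3, 1859 in animal 4, 1423 in animal 6 and 1306 in animal 2. Kcne2 in the same libraries was at 22.2, 17.7, 12.6, 11.3, 7.003 and 6.34 CPM, and Clic6 at 73.2, 45.5, 36.6, 30.5, 25.7 and 21.6 CPM. The order of the 6 animals was the same for all 3 quantities. In the EC the 11 genes summed to 179 to 249 CPM.

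Kcnj6 encodes the G protein-gated inward rectifier GIRK2, which carries slow inhibitory currents in hippocampal neurons. It ranged from 59.7 to 87.5 CPM in the HIP (median 76.9) and from 32.1 to 42.9 CPM in the EC (median 40.0), apart in all libraries (-0.98, SE 0.09, adjusted p = 5.41e-06). Kcnj3, whose product pairs with it and which lies outside the segment, was also higher in the HIP (-0.25, SE 0.04). Of the 13 tested inward rectifier genes, Kcnj6 included, 7 were higher in the EC and 5 in the HIP (median 0.29). The kainate receptor gene Grik1 was at 16.4 to 25.8 CPM in the EC and 17.1 to 22.9 CPM in the HIP, overlapping (0.19, SE 0.06, adjusted p = 0.0161), and this call was lost without the animal block (adjusted p = 0.108). Of the interferon receptor genes, Ifnar1 was higher in the EC (0.19, SE 0.04) and Ifngr2 in the HIP (-0.21, SE 0.05, 6 of 6 animals), and Ifnar2, Il10rb and the inositol transporter gene Slc5a3 did not pass. Kcne1 and Kcnj15 were too low to be tested.

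The list of adhesion and extracellular genes was split, 4 higher in the EC and 3 in the HIP of 8 tested, and it counts Pcp4, whose product is intracellular. Pcp4, a calmodulin regulator that also marks CA2 cells and deep cortical layers, ranged from 86.3 to 119.98 CPM in the EC (median 110.1) and from 40.8 to 63.5 CPM in the HIP (median 48.6), the largest called difference of the segment towards the EC (1.09, SE 0.05, adjusted p = 8.75e-08). App, the amyloid precursor protein gene, was at 3413 to 3787 CPM in the EC and 2954 to 3197 CPM in the HIP. That is 1.18-fold, yet without overlap and in all 6 animals (0.24, SE 0.04, adjusted p = 0.00055). Per kilobase of exon it was the highest of the tested segment genes in both regions, at 281 RPKM (counts per kilobase and M of the library) in the EC and 239 RPKM in the HIP, before Synj1 at 114 and 109 RPKM. Adamts1, a protease that cleaves the proteoglycans around neurons, was the reverse, at 39.3 to 54.4 CPM in the HIP and 14.8 to 21.8 CPM in the EC (-1.25, SE 0.09, adjusted p = 1.41e-06), and its neighbour Adamts5 was slightly higher in the EC (0.39, SE 0.11). The junction gene Jam2 was higher in the EC (0.33, SE 0.04). Dscam, a homophilic adhesion molecule of developing neurites, was at 108.1 to 131 CPM in the EC and 107.8 to 123.03 CPM in the HIP and did not pass the threshold (0.01, SE 0.05, adjusted p = 0.922).

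A list of 7 genes made for vesicles and endosomes had 3 higher in the HIP (Itsn1, Hunk and Donson) and 1 in the EC (Cryzl1, 0.13, SE 0.05), but of these 4 only Itsn1 is an endocytic gene. The call of Cryzl1 was lost with most single animals left out. Hunk, a kinase gene, ranged from 73.7 to 101.4 CPM in the HIP and from 37.1 to 64.3 CPM in the EC (-0.88, SE 0.10, adjusted p = 2.58e-05). Itsn1, an endocytic scaffold, was at 219.9 to 244 CPM in the HIP and 186 to 224 CPM in the EC, overlapping but higher in the HIP in all 6 animals (-0.16, SE 0.04). Synj1, the phosphatase that uncoats synaptic vesicles, was at 733 to 994 CPM in the EC and 804 to 953 CPM in the HIP and did not pass (0.06, SE 0.05). Neither did the Rac activator gene Tiam1 (-0.02, SE 0.09) or Vps26c. The lowest EC value of Synj1 came from animal 5, and the other 5 lay between 934 and 994 CPM.

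Signalling genes of the segment were called in both directions, 4 higher in the EC and 3 in the HIP of 9 tested. The ubiquitin ligase gene Ttc3 ranged from 1663 to 1966 CPM in the EC and from 1299 to 1478 CPM in the HIP (0.39, SE 0.04, adjusted p = 1.9e-05). Rcan1, an inhibitor of calcineurin, was at 96.7 to 110.3 CPM in the EC and 75.8 to 89.2 CPM in the HIP (0.29, SE 0.04, adjusted p = 0.000108). Dyrk1a, a kinase much studied in Down syndrome, was at 131 to 152 CPM in the EC and 122 to 131 CPM in the HIP, 1.11-fold and higher in the EC in all 6 animals (0.16, SE 0.04, adjusted p = 0.00496). Bace2, a protease related to the beta-secretase, was low in both regions, at medians of 6.35 CPM in the EC and 3.39 CPM in the HIP, without overlap (1.05, SE 0.20, adjusted p = 0.00102). Sh3bgr was lower still and the reverse, at 2.00 to 3.37 CPM in the HIP and 0.274 to 0.572 CPM in the EC (-2.61, SE 0.18). B3galt5, a galactosyltransferase gene on none of the role lists, ranged from 139 to 171 CPM in the HIP and from 33.8 to 40.9 CPM in the EC, 4.05-fold lower (-2.02, SE 0.05, adjusted p = 3.05e-09).

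**Figure D3:**
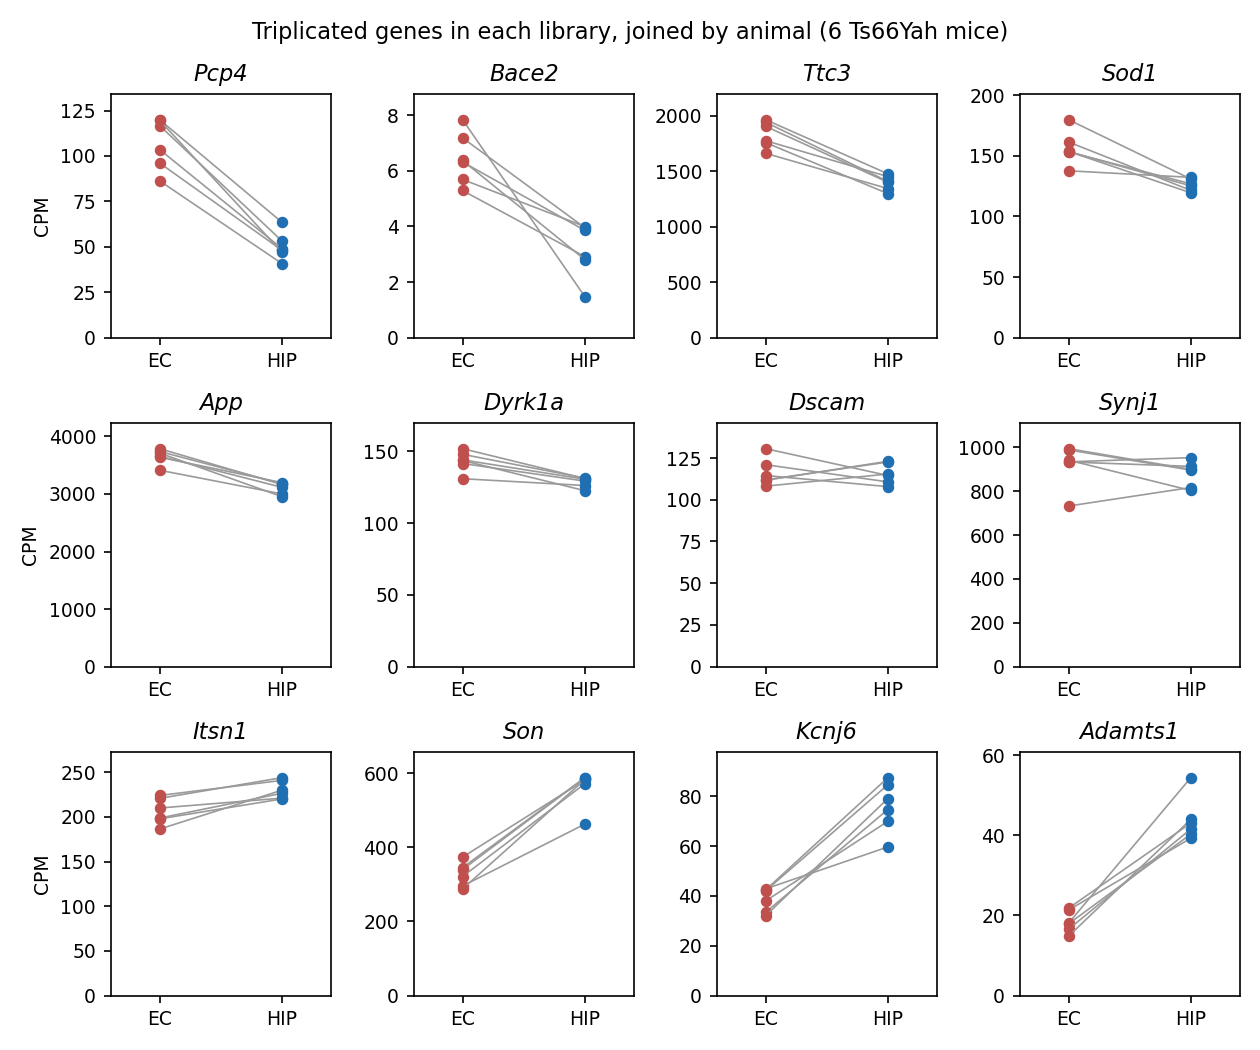
CPM (y axes, from 0) of 12 triplicated genes in the EC (red) and the HIP (blue) of 6 Ts66Yah mice, each point 1 library and each line 1 animal. The lines fall from EC to HIP in all animals for Pcp4, Bace2, Ttc3, Sod1, App and Dyrk1a, cross for Dscam and Synj1, and rise in all animals for Itsn1, Son, Kcnj6 and Adamts1.

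Transcription and chromatin genes were higher in the HIP in 7 of 15 tested cases and in the EC in 3. Olig2, which specifies the oligodendrocyte lineage, ranged from 19.6 to 23.5 CPM in the HIP and from 12.6 to 17.3 CPM in the EC (-0.52, SE 0.08, adjusted p = 0.000274). Olig1 beside it was at 62.7 to 82.3 CPM in the HIP and 38.5 to 67.2 CPM in the EC, overlapping, with 5 of 6 animals higher in the HIP (-0.47, SE 0.12, adjusted p = 0.00672). The other 12 genes of the myelin list had larger differences, summing to 8059 to 10543 CPM in the HIP and 1825 to 3168 CPM in the EC. The 2 EC libraries with the highest sums, those of animals 5 and 6, also had the highest Olig1, 67.2 and 66.9 CPM, whereas Olig2 was highest in the EC of animal 4. The part of oligodendrocyte content in these values was not tested. Setd4 was also higher in the HIP (-0.73, SE 0.09), while Ets2 (0.29, SE 0.05), the biotin-protein ligase gene Hlcs (0.44, SE 0.05) and the replication-coupled histone chaperone gene Chaf1b (1.08, SE 0.21), at about 1 CPM in the EC, were higher in the EC. Erg, an endothelial factor, did not pass (0.18, SE 0.11), and Runx1, Bach1, Brwd1 and Ripply3 did not either.

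**Figure D4:**
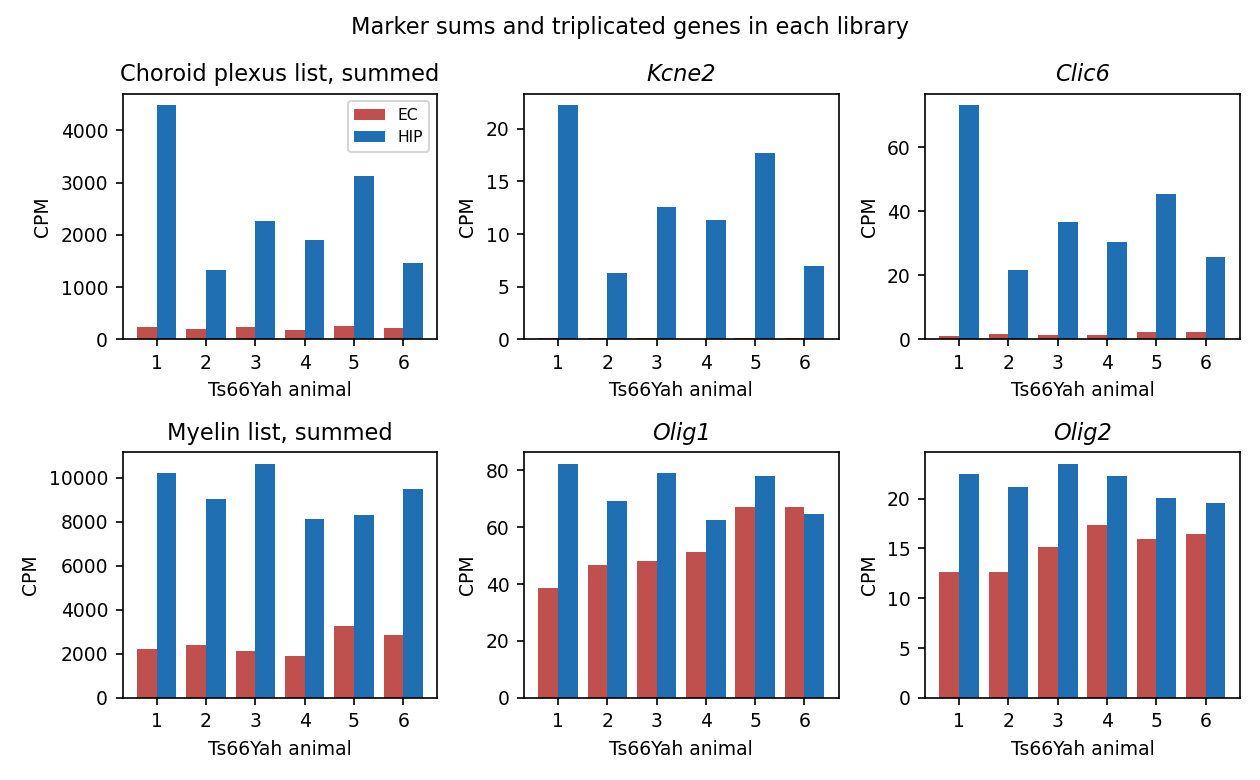
CPM (y axes, from 0) in the EC (red) and the HIP (blue) of each of 6 Ts66Yah animals (x axes). Upper row, the summed choroid plexus list, Kcne2 and Clic6, whose HIP bars are highest in animal 1 and lowest in animal 2 in all panels. Lower row, the summed myelin list, Olig1 and Olig2, where the HIP bar is above the EC bar in every animal for the list and Olig2, and in all but animal 6 for Olig1.

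Of 14 genes listed for metabolism, protein quality and mitochondria, 7 were higher in the EC and 3 in the HIP, where all tested genes gave 28.9% and 30.1%. Sod1, the cytosolic superoxide dismutase gene, ranged from 137.7 to 179.9 CPM in the EC and from 119.5 to 132 CPM in the HIP (0.31, SE 0.05, adjusted p = 0.000478). The chaperonin gene Cct8 was at 306 to 349 CPM in the EC and 238 to 266 CPM in the HIP (0.35, SE 0.04), and the carbonyl reductase gene Cbr1 was also higher in the EC (0.35, SE 0.07). Paxbp1, a transcription cofactor gene counted in this list (-1.18, SE 0.09), and the deubiquitinase gene Usp16 (-0.62, SE 0.06) were higher in the HIP. Usp16 and Cct8 differed in opposite directions although the genes overlap on opposite strands. Son, a splicing protein gene, was at 462 to 588 CPM in the HIP and 288 to 373 CPM in the EC (-0.78, SE 0.05), and it overlaps Donson on the other strand, which was also higher in the HIP (-0.38, SE 0.06). The library kit keeps the strand, but the strand setting of the counting is not stated, so reads of such pairs cannot be told apart here. This also holds for Kcnj6 with the antisense gene Gm41505 (-1.06, SE 0.12) and Ttc3 with Pigp (-0.21, SE 0.05). Pcp4 overlaps a second gene annotated as Igsf5 on its own strand, a pair that no strand setting could separate.

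As a whole, the segment leaned slightly to the HIP within the animals. The median over its tested genes of log2 CPM in the EC minus log2 CPM in the HIP was -0.112 ± 0.063 (SD, n = 6), from -0.219 in animal 5 to -0.043 in animal 6. The same median over all tested genes ran from -0.013 to 0.002. With protein-coding genes alone the segment value was -0.066. In summed level the segment leaned the other way, at 10062 to 10764 CPM in the EC and 9560.1 to 10035 CPM in the HIP, with App and Ttc3, its highest genes by CPM, higher in the EC. In the wt mice, with 2 copies, the median was -0.063 ± 0.035 (SD, n = 5).

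Whether any of these regional differences is particular to Ts66Yah was then tested. In the 5 wt mice, which share no library with the Ts66Yah mice, 9562 of 17935 genes were called (53.3%), 4724 towards the EC and 4838 towards the HIP. Of the 10647 Ts66Yah calls, 10489 were also tested in wt. Of these, 10379 had the same direction, 8468 were also called in that direction, and 1 was called in the opposite one, the myocilin gene Myoc (-0.61 in Ts66Yah, 0.46 in wt). Of the 2182 genes that were at least 2-fold in Ts66Yah and tested in wt, 2177 had the same direction. Across 17636 genes, which are not independent replicates, the log2 fold changes had a Pearson r of 0.953, and across the 91 segment genes tested in both, 0.939. In the segment, 59 of the Ts66Yah calls were tested in wt, 57 had the same direction and 46 were called.

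**Figure D5:**
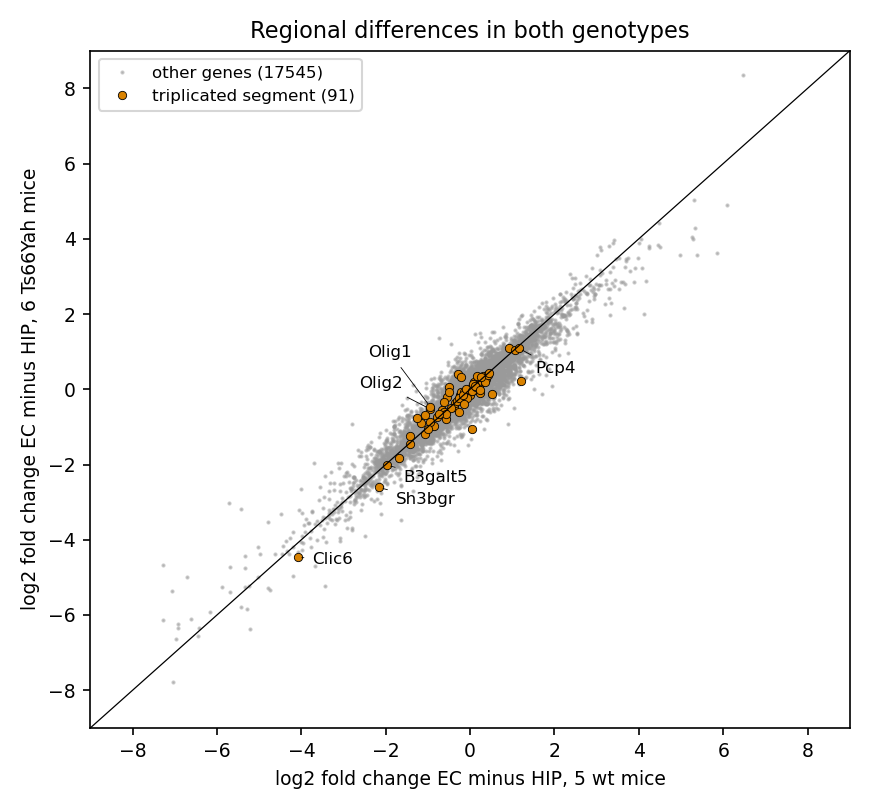
Log2 fold change EC minus HIP in 5 wt mice (x axis) and in 6 Ts66Yah mice (y axis) for 17636 genes tested in both, with the 91 genes of the triplicated segment in orange and the line of equality. The points follow the line, with r = 0.953 over all genes and 0.939 over the segment. Olig1 and Olig2 lie above it, and other segment genes, among them Gm36001 and Gm5678, lie further from it. No gene passed the main test of the difference between the genotypes.

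The difference of the regional differences, Ts66Yah minus wt, was fitted over all 22 libraries with 11 animals as block. No gene of 19074 passed an adjusted p of 0.05 in edgeR's test (0.00%), and none did with DESeq2 or limma voom, whereas 209 did in edgeR's test without the filter on low counts, 208 of them genes also tested with it. Without adjustment, 726 genes (3.81%) had a p under 0.05, as did 7 of 103 in the segment (6.80%). Without the animal block these were 388 and 2, and without wt replicate 1 the segment had 3. The median interaction of the segment genes was 0.01 and their median absolute value 0.089, against 0.088 over all genes. For the 62 segment genes with at least 10 CPM the median SE was 0.087, and the values ran from -0.58 for Kcne2, whose SE was 0.84, to 0.48 for Olig1 (SE 0.20). The smallest unadjusted p in the segment was that of Olig2, at an interaction of 0.43 (SE 0.13), with an adjusted p of 1, whose difference was -0.52 in Ts66Yah and -0.95 in wt. After it in the segment came Cfap298 (0.41 in Ts66Yah and -0.28 in wt) and Son (-0.78 and -0.57). Gm36001 (-1.05 and 0.04) and Gm5678 (0.21 and 1.20), with means under 1 CPM in both regions, and Olig1 (-0.47 and -0.94) followed. Over all genes the smallest were those of Amn (1.46 in Ts66Yah, 0.11 in wt), Col6a3 (-1.31 and 0.02), Ano2 (0.71 and 1.78), Trp53i11 (0.77 and 1.08) and Grhl1 (-0.93 and -0.51), each with an adjusted p of 1. Kcne2 passed the filter over all 22 libraries but not in the wt mice alone. Its HIP level was 5.83, 17.4, 7.83, 0.264 and 13.5 CPM in wt animals 1 to 5, and in animal 4, where it was low, Ttr was at 80.2 CPM against 1068 to 3107 CPM in the other 4.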

How the data were processed

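RNA from the EC and HIP of 6 Ts66Yah and 5 wt mice was sequenced single-end. Raw read counts per gene were deposited by the authors as 1 table of 55385 genes, made by their methods with Hisat2 on GRCm38 and HTSeq-count with Ensembl annotation. The strand setting and the treatment of reads with several positions are not given in the sources used here. The labels name poly(A) selection and a stranded kit, whereas the methods also name a depletion kit, and which was used was not resolved. The authors' 4 tables of their own genotype comparisons (fold changes and p-values) were not used.

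Ts66Yah libraries were fitted with edgeR 4.0.16 in R 4.3.3 (TMM scaling, filterByExpr, quasi-likelihood test, animal and region as terms), and p-values were adjusted after Benjamini and Hochberg across every gene tested, at 0.05. All p-values in the text are from such fits, and a standard error is the log2 fold change divided by the root of the F statistic. CPM were scaled by TMM, and the medians within animals used log2 CPM with a prior count of 2. The wt mice were fitted alike, and the interaction over all 22 libraries. Alternatives were DESeq2 1.42.0, limma 3.58.1 (voom), RLE scaling, no filter, a filter of 1 CPM, no animal block, 1 fit of all libraries, and each animal left out. The fits were tested on simulated data. Positions come from GENCODE M21 (GRCm38), in which 55144 of the genes were found.

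Same-numbered EC and HIP libraries carry the same animal number in the labels, and their deviations from the region means correlated at 0.356 to 0.603 over 11578 genes, against -0.392 to 0.334 for other animals. Nothing else in the labels marks a batch.

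Genes were named by rule. These were the 12 called protein-coding genes with the largest difference in each direction, without overlap and with at least 5 CPM in the higher region, the 8 largest called segment genes in each direction with at least 1 CPM, a fixed list of segment genes, up to 3 called genes in each direction per list with members that did not pass, and the 5 smallest interaction p-values overall and in the segment. The text gives a selection of these, and a few genes the rule names are not reported here. Prox1, Reln, Csf1r, Enpp2 and the wt values of Ttr were added after their values were seen. The members and lists were chosen with earlier results of these data known.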

Additional observations from a re-analysis of the deposited data

Results flagged for a closer look

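Single libraries stood apart from the others of their group in 31 of 436 groups of 5 or 6 examined by Dixon's test, which chance alone would do in about 1 of 20. Of these, 8 were among 92 groups of segment genes.

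In the segment, Adamts1 was at 54.4 CPM in the HIP of animal 1 (others 39.3 to 43.97), Paxbp1 at 25.1 CPM in the EC of animal 4 (others 13.9 to 16.9) and Synj1 at 733 CPM in the EC of animal 5 (others 934 to 994). Son was low in the HIP of animal 2, at 462 CPM (others 571 to 588), as was Usp16 at 35.0 CPM (others 40.3 to 41.5). Igsf5 was at 0.958 CPM in the HIP of animal 4, Gm36001 at 1.48 CPM in the HIP of animal 3 and Gm5678 at 0.418 CPM in the EC of animal 4. The EC of animal 5 had the lowest sums of segment channels and receptors, 259 CPM (others 291 to 296), and of segment vesicle genes, 1319 CPM (others 1569 to 1637).

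Among genes of neuronal lists, the HIP of animal 4 was low for Cabp7 (266 CPM), Bcl11b (124 CPM) and the summed Hippocampus-wide list (1881 CPM, others 2244 to 2373), as for Mobp (918 CPM), and high for Grin3a (57.0 CPM). The HIP of animal 2 was high for Penk (44.0 CPM), Cnih3 (99.4 CPM), Drd1 (11.9 CPM) and the summed inward rectifiers (883 CPM), and low for Map3k15 (1.65 CPM). The HIP of animal 5 was high for Cartpt (1.56 CPM) and low for the summed interneuron list (1817 CPM). Gabra2 was highest in both regions of animal 3, at 266 CPM in the EC and 308 CPM in the HIP.

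The remaining values were Gm765 at 18.7 CPM in the EC of animal 5 and 1.95 CPM in the HIP of animal 2, Gm45623 at 12.8 CPM and Zfpm2 at 14.3 CPM in the EC of animal 6, Myl4 at 3.33 CPM and Mki67, the lowest, at 1.67 CPM in the HIP of animal 6, and C1qa at 71.1 CPM in the EC of animal 5.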

How the results depend on the processing

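Over the other tools, scalings, filters and fits, the called genes numbered 9449 to 11492 against 10647, and 48.3% to 49.8% of them were higher in the EC. Genes of at least 2-fold higher in the HIP fell from 1541 to 980 with a filter of 1 CPM, which tests 15011 genes. Segment calls ranged from 20 to 26 in the EC and from 34 to 41 in the HIP, also with an animal left out, and the segment median from -0.102 to -0.056, except -0.18 without a filter, where the median of all 36220 genes was -0.067.

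Interaction calls rose from 0 to 209 without a filter on low counts, 208 of them genes also tested with it, and ranged from 0 to 1 with an animal left out, the 1 being without Ts66Yah replicate 5. Unadjusted p-values under 0.05 numbered 1413 without a filter and 388 without the replicate block, and in the segment 2 without the replicate block and 3 to 8 with an animal left out, with 4 without Ts66Yah replicate 6, 3 without wt replicate 1 and 4 without wt replicate 3. The cause was not tested for any of these.

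Of 184 named genes past the threshold, 169 stayed past it in every alternative. Among segment genes, Grik1, Cfap298, Igsf5, Cryzl1 and Ripk4 lost it in at least 1. Cryzl1 lost it without animal 1, 2, 3, 5 or 6. Cfap298 lost it without animal 2, 3, 4, 5 or 6 and with a filter of 1 CPM. Without the block, Ndnf (adjusted p = 0.127), Slc6a13 (0.0739), Hba-a2 (0.240), Inhba (0.245), Bdnf (0.0950), Gabra2 (0.0687), Cyp26b1 (0.0585), Ntng1 (0.0985), Tcf7l2 (0.0850) and Ano2 (0.189) were also lost in edgeR's test. Values that did not pass changed sign for Dscam, at -0.0060 with a filter of 1 CPM and -0.027 to 0.037 with an animal left out, and for Tiam1, at -0.094 to 0.090 with an animal left out. Depth limits the 14 tested segment genes under 1 CPM, and the 191 untested ones are not described.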

Other observations

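Genes of adult neurogenesis, which in the HIP takes place in the subgranular zone of the DG, went both ways. Of 12 tested, 3 were higher in the EC and 5 in the HIP (median -0.07). Dcx, a microtubule protein of migrating neurons, was at 31.5 to 47.4 CPM in the EC and 16.8 to 21.9 CPM in the HIP (1.09), while Mki67, a proliferation marker, was at 0.627 to 1.15 CPM in the EC and 1.67 to 2.69 CPM in the HIP (-1.41). Of 7 tested thalamic genes, 4 were higher in the EC and 2 in the HIP (median 0.38), of which Ntng1 and Tcf7l2 lost their calls with DESeq2 and with most single animals left out, and of 7 genes of the amygdala and piriform cortex, 3 and 2 (median 0.03).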
